A study of Neurospora crassa with 4 samples.

Results

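The comparison described here is the response of a *Neurospora crassa* strain that lacks *czt-1* (NCU09974) to staurosporine. It uses 2 of the 4 RNA-seq libraries of the series, the Δ*czt-1* library treated with staurosporine and the Δ*czt-1* library treated with DMSO, the solvent of the drug. Both were chosen by their labels, not by any measured value. Conidia, the asexual spores of this filamentous fungus, were germinated for 6 h in minimal medium under constant light and then exposed for 1 h to 20 μM staurosporine or to DMSO, so that the cells were young germlings. The remaining 2 libraries are the wild type under the same 2 treatments. Both Δ*czt-1* libraries carry the deletion, and the deletion is represented by 1 strain. Every condition has 1 library, so no difference below has a replicate check, no error can be attached to it, and differences are described by their size.

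Staurosporine is a bacterial alkaloid that binds the ATP pocket of a wide range of protein kinases, and in *N. crassa* it triggers a programmed cell death. CZT-1 is a transcription factor with a zinc cluster DNA-binding domain of the kind found in fungi, and cells without it are hypersensitive to the drug. Fungal cells under stress or starvation are known to shut off the genes for ribosome assembly and to turn on genes for the vacuole, for autophagy and for the use of other carbon sources, and this known pattern is the background against which the functional groups were laid out.

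Values are FPKM, fragments mapped to a transcript divided by its length and by the size of the library, and a change is the difference of log2(FPKM + 1), staurosporine minus DMSO. Rose and fell are used below for changes of at least 2-fold on this scale. The added 1 understates the change of genes with a low value in either library. The deletion was visible in both libraries. In Δ*czt-1*, *czt-1* had 1.54 FPKM with staurosporine and 2.26 FPKM with DMSO, against 384 FPKM with staurosporine and 19.7 FPKM with DMSO in the wild type. Its neighbour *abc3* (NCU09975), which encodes a drug efflux pump of the ATP-binding cassette type, had 13 FPKM with staurosporine and 13.4 FPKM with DMSO in Δ*czt-1*, a change of −0.04. In the wild type *abc3* had 798 and 6.79 FPKM with staurosporine and DMSO. Wild-type values are given here side by side, and the difference between the strains was not tested.

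Genes that mark conidia rather than germlings, *con-6*, *con-8*, *con-10*, *con-13* and *eas*, had a summed FPKM of 167 with staurosporine and 49.4 with DMSO in Δ*czt-1*, and of 64.2 and 24.9 in the wild type. All 5 were higher with staurosporine in Δ*czt-1*, and *con-13* stayed near 0 in both libraries. The marker sum moved with the treatment, as every result below does, and its part in them was not tested. In bulk RNA, more cells of a type and more RNA per cell cannot be told apart.

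The deposited table of both Δ*czt-1* libraries has 9691 rows, of which 66 join several loci, and 7775 rows had an FPKM of at least 1 in either Δ*czt-1* library. With staurosporine 1435 of these rows rose and 1545 fell at least 2-fold. These are 18.5% and 19.9% of all rows measured, and 38.3% in either direction. The median change was 0.00 and the SD over rows was 1.34. The read totals of the libraries are unknown. The scaling matters for the balance of directions, because the FPKM of the staurosporine library add up to less than those of the DMSO library. Giving the 2 libraries equal FPKM sums moved the median gene up by 0.61, and scaling to the same sum outside the 100 most expressed rows moved it up by 0.30. Of the rows that changed at least 2-fold, 48.2% were higher and 51.8% lower as deposited, 76.4% were higher and 23.6% lower at the same FPKM sum, and 63.6% were higher and 36.4% lower with the 100 most expressed rows left out of the sum. The changes below are as deposited, and the value at the same FPKM sum is given for groups that turn direction or that lose or gain a 2-fold median.

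Rows with high expression fell more often than rows with low expression. Of the 1291 rows with a mean log2(FPKM + 1) under 2 over both libraries, 30.4% rose and 7.05% fell, with a median change of 0.57. Of the 126 rows with a mean of 10 or more, 0.794% rose and 61.1% fell, with a median of −1.17. Cytosolic ribosomal proteins make up many of these 126 rows, and the 65 that are not ribosomal proteins had a median of −0.78, with 1 rising and 27 falling. At the same FPKM sum the medians of the highest bin were −0.50 with and −0.11 without ribosomal proteins.

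**Figure D1:**
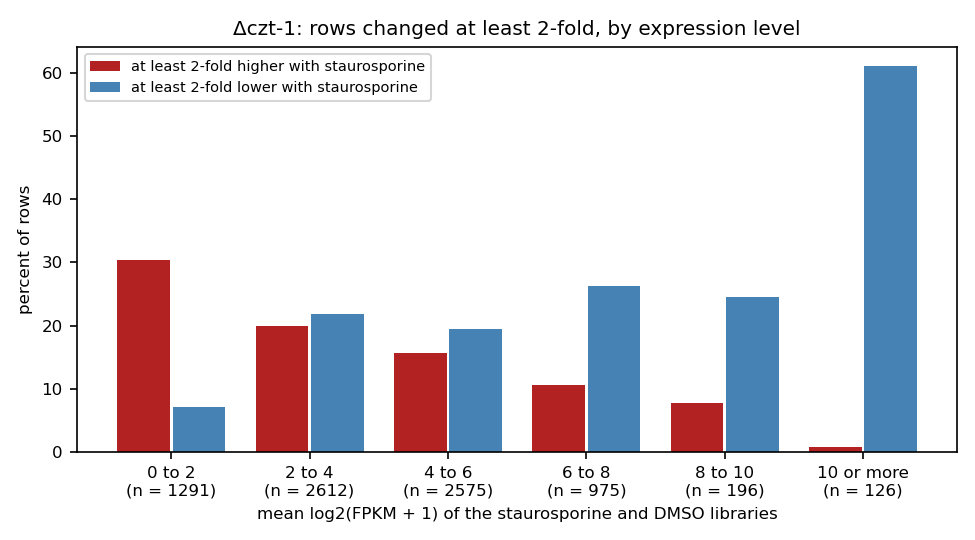
Percent of rows that were at least 2-fold higher (red) or at least 2-fold lower (blue) with staurosporine than with DMSO in Δczt-1, in bins of the mean log2(FPKM + 1) of both libraries, with the number of rows under each bin. The share of lower rows is 7.05% in the lowest bin and 61.1% in the highest, and the share of higher rows runs the other way, 30.4% against 0.794%.

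The genes were sorted into 55 functional groups by words in their deposited descriptions. The groups hold 2371 rows, 2257 of them measured. Medians ran down to −3.56 for ribosome biogenesis and up to 1.29 for conidiation and development. A total of 12 groups had a median of at least 2-fold in either direction as deposited, 10 of them lower with staurosporine. At the same FPKM sum 7 of the 12 kept it and 6 further groups reached it, all higher with staurosporine. Their medians were then 1.20 for vacuole and autophagy, 1.28 for peptidases and 1.28 for alcohol, aldehyde, aldo-keto and short-chain dehydrogenases. For drug transporters outside the ABC family, sugar transporters and plant cell wall degrading enzymes they were 1.19, 1.21 and 1.05. Over all measured rows 18.5% rose and 19.9% fell, and counts in a group near these shares are not a trait of that group.

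Ribosome assembly was the group furthest below all rows. Of 80 genes for ribosome biogenesis and rRNA processing, the nucleolar factors that cut and fold pre-rRNA and attach ribosomal proteins to it, 78 fell and 0 rose, and the median FPKM was 2.52 with staurosporine and 40.7 with DMSO. The rRNA helicase gene *rrp-3* (NCU04504) had 0.746 FPKM with staurosporine and 42.6 FPKM with DMSO (change −4.64). The gene for nucleolar protein 12 (NCU09131) had 1.57 and 59.5 FPKM (−4.55), and NCU09521, described as a ribosome biogenesis protein, had 1.62 and 58.5 FPKM (−4.50). Values of this size with staurosporine lie near the low end of the measured range, so the changes are understated on this scale. The 2 genes of the group that did not fall, NCU01160 and NCU08767, changed by −0.46 and −0.31 and were picked out after their values were seen. NCU04165, described as the low-temperature viability protein Ltv1, whose yeast counterpart takes part in small-subunit assembly, had 1.04 FPKM with staurosporine and 47.8 FPKM with DMSO (−4.58).

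The enzymes that make the ribosomal and transfer RNAs moved the same way. Among the 12 genes for RNA polymerases I and III, which transcribe rRNA and tRNA genes, 10 fell and 0 rose (median −2.04). NCU02533, a subunit shared by both polymerases, had 4.44 FPKM with staurosporine and 82.8 FPKM with DMSO. NCU01638 of RNA polymerase I had 2.13 and 50.5 FPKM, and NCU03560 of RNA polymerase III had 1.91 and 39.2 FPKM. Of 25 genes for tRNA modification, 18 fell and 1 rose (median −1.95), among them NCU09571, a tRNA adenine methyltransferase, with 0.893 FPKM with staurosporine and 35.3 FPKM with DMSO. The enzymes that charge tRNAs behaved otherwise. Of 38 aminoacyl-tRNA synthetase genes 8 fell and 1 rose, and their median of −0.35 became 0.31 at the same FPKM sum. Some members fell steeply even so, such as the lysyl-tRNA synthetase NCU00931 with 1.10 FPKM with staurosporine and 32.6 FPKM with DMSO, and *cyt-18* (NCU03030), a mitochondrial tyrosyl-tRNA synthetase that also helps introns to splice, with 4.63 and 62.3 FPKM.

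Ribosomal protein genes, the most expressed of these groups, fell less far and more evenly. Of 78 cytosolic ribosomal protein genes 64 fell and 1 rose (median −1.37, quartiles −1.57 and −1.13, and a median of −0.69 at the same FPKM sum), and together they held 20.7% of the FPKM sum with staurosporine and 31.2% with DMSO. NCU08963, for ribosomal protein L30, had 406 FPKM with staurosporine and 3062 FPKM with DMSO (−2.91). NCU07547, described as acidic ribosomal protein P0, stood apart from the group at 5.53 FPKM with staurosporine and 112 FPKM with DMSO (−4.11), a level far below the group's median of 1452 and 3840 FPKM. Mitochondrial ribosomal proteins fell in 29 of 33 cases with 0 rising (median −1.91). A gene for the large-subunit protein L5 (NCU04171) had 9.29 FPKM with staurosporine and 133 FPKM with DMSO.

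Translation factors fell with the ribosome. Of 29 initiation factor genes 20 fell and 1 rose (median −1.58, and −0.91 at the same FPKM sum), and of 15 genes for elongation and release 10 fell and 0 rose (median −1.48, and −0.81 at the same FPKM sum). The helicase gene eIF4A (NCU07420), which unwinds the mRNA leader, had 228 FPKM with staurosporine and 2195 FPKM with DMSO (−3.26). NCU02076, the cap-binding factor eIF4E, had 41.8 and 259 FPKM. Elongation factor 1 alpha, *tef-1* (NCU02003), among the most abundant transcripts, had 8191 FPKM with staurosporine and 19167 FPKM with DMSO (−1.23, and −0.55 at the same FPKM sum). Genes for pre-mRNA splicing changed less, with 12 of 64 falling, 0 rising and a median of −0.51 that became 0.14 at the same FPKM sum. The falling share of 18.8% was near the 19.9% of all rows. Nuclear transport genes had a median of −0.42, which became 0.23 at the same FPKM sum, yet they hold 1 of the steepest falls of all. The karyopherin gene NCU05650, described as Kap123, whose yeast counterpart carries ribosomal proteins into the nucleus, had 2.90 FPKM with staurosporine and 110 FPKM with DMSO (−4.84), and the nuclear export gene NCU00337, described as Noc3, had 1.26 and 26.2 FPKM.

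**Figure D2:**
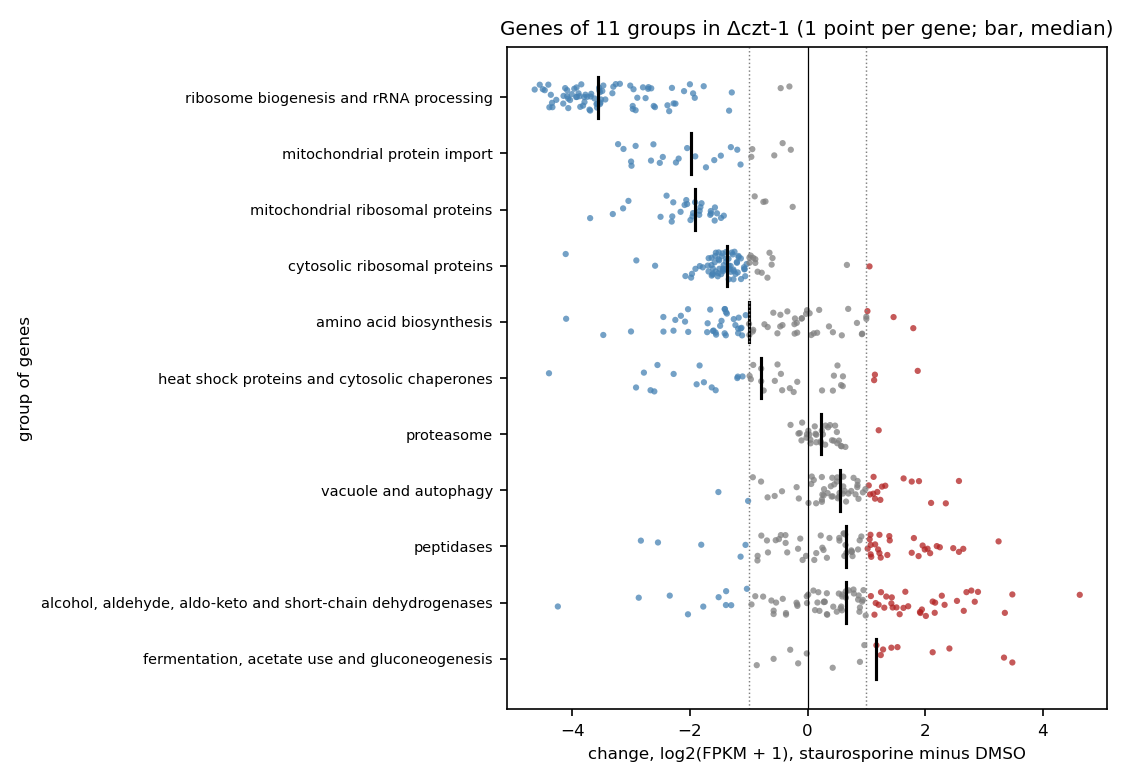
Change of every measured gene of 11 functional groups in Δczt-1, staurosporine minus DMSO in log2(FPKM + 1), 1 point per gene, with vertical spread for legibility only. Red points were at least 2-fold higher, blue points at least 2-fold lower and grey points neither, and black bars are medians. Ribosome biogenesis lies to the left with 78 of 80 genes falling, the proteasome near 0 as deposited with 1 of 33 rising, and fermentation and acetate genes to the right with 9 of 17 rising.

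Chaperone genes were lower with staurosporine, with 15 of 38 falling and 3 rising (median −0.79, and −0.12 at the same FPKM sum). The 3 furthest down among those that reached 10 FPKM were hsp70 genes, whose products hold and refold client proteins. *hsp70-2* (NCU02075) had 139 FPKM with staurosporine and 2944 FPKM with DMSO (−4.40). *hsp70-1* (NCU09602) had 189 and 1306 FPKM (−2.78), and *hsp70-5* (NCU08693) had 77.9 and 595 FPKM (−2.92). A further gene described as hsp70-like, NCU04172, changed less, with 21.9 and 43.8 FPKM (−0.97). *hsp80* (NCU04142), the hsp90 homolog that matures kinases among other clients, had 158 FPKM with staurosporine and 470 FPKM with DMSO (−1.56, and −0.89 at the same FPKM sum). The disaggregase gene *hsp98* (NCU00104) instead had 30.1 and 22.1 FPKM (0.43, and 1.08 at the same FPKM sum). In the wild type *hsp80* had 625 FPKM with staurosporine and 313 FPKM with DMSO, and *hsp70-1* had 1039 and 1090 FPKM. There *hsp70-2* fell as well, with 600 and 2940 FPKM (−2.29), and *hsp70-5* had 401 and 645 FPKM (−0.68).

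The machinery of protein breakdown did not follow protein synthesis. The proteasome, the protease that removes ubiquitin-tagged proteins, had 1 of 33 genes rising, 0 falling and 26 above 0 (median 0.22, and 0.89 at the same FPKM sum). Ubiquitin itself, *ubi* (NCU05995), had 968 FPKM with staurosporine and 255 FPKM with DMSO (1.92). Of 87 genes for ubiquitin transfer and removal 14 rose and 6 fell (median 0.22), for example the conjugating enzyme NCU09122 with 61.6 and 14.4 FPKM and the F-box protein NCU06932 with 13.9 and 2.55 FPKM.

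Vacuole and autophagy genes stood mostly above 0. Of 61 genes 15 rose and 2 fell, and 52 lay above 0 (median 0.54). The vacuolar protease gene *pep4* (NCU02273), which activates other vacuolar hydrolases, had 751 FPKM with staurosporine and 126 FPKM with DMSO (2.57). *apg-1* (NCU00188), the kinase that starts autophagosome formation, had 53.8 and 9.75 FPKM (2.35), and *atg-8* (NCU01545), the ubiquitin-like protein that coats the autophagosome, had 561 and 150 FPKM (1.89). Peptidases in general shared this direction, with 27 of 69 rising and 5 falling (median 0.66). The serine protease p2 gene (NCU00673) had 1789 FPKM with staurosporine and 188 FPKM with DMSO (3.25), while methionine aminopeptidase 1 (NCU06923), which trims new proteins at the ribosome, had 16.9 and 127 FPKM (−2.84). Genes of the endoplasmic reticulum, for folding, translocation and glycosylation, and genes for vesicle traffic were spread about 0 as deposited. Their medians were −0.06 and 0.05, which became 0.58 and 0.69 at the same FPKM sum.

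In the mitochondrion the biogenesis genes and the respiratory chain parted. Protein import genes, for the TOM and TIM complexes that bring precursor proteins across the 2 membranes, fell in 19 of 24 cases with 0 rising (median −1.98). *tim54* (NCU07295) had 4.31 FPKM with staurosporine and 48.6 FPKM with DMSO, *tim44* (NCU03229) had 11.5 and 108 FPKM, and the receptor gene *tom20* (NCU06632) had 26.2 and 217 FPKM. Carrier proteins of the inner membrane fell in 18 of 31 cases and rose in 4 (median −1.38, and −0.71 at the same FPKM sum), led by NCU01916, the counterpart of the yeast pyrimidine nucleotide carrier Rim2, with 0.251 FPKM with staurosporine and 28.4 FPKM with DMSO (−4.55).

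Subunits of the respiratory complexes changed far less. Complex I had a median of −0.31 over 28 genes with 1 rising and 1 falling, ATP synthase −0.33 over 11 genes with 1 falling, and complexes III and IV with cytochrome c −0.65 over 12 genes with 1 falling. At the same FPKM sum these medians became 0.36, 0.34 and 0.02. Cytochrome c, *cyc-1* (NCU01808), the soluble electron carrier between complexes III and IV, was the exception with 178 FPKM with staurosporine and 2448 FPKM with DMSO (−3.77), and *cyt-2* (NCU05601), which attaches heme to it, had 6.06 and 39.0 FPKM (−2.50). The 4 genes for enzymes that bypass the proton-pumping complexes had a median of −1.44, and −0.94 at the same FPKM sum. Alternative oxidase, *aod-1* (NCU07953), had 9.77 FPKM with staurosporine and 81.8 FPKM with DMSO (−2.94), and the alternative NADH dehydrogenase gene *nde-2* (NCU08980) had 37.5 and 361 FPKM (−3.23), whereas *nde-1* (NCU05225) had 18.4 and 8.63 FPKM (1.01). The second alternative oxidase gene, *aod-3* (NCU04874), stayed near 1 FPKM, with 1.13 FPKM with staurosporine and 1.04 FPKM with DMSO.

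Genes of the tricarboxylic acid cycle fell in 8 of 21 cases with 0 rising, and their median of −0.53 became 0.14 at the same FPKM sum. A malate dehydrogenase gene (NCU04122) had 26.4 FPKM with staurosporine and 496 FPKM with DMSO (−4.18), and an aconitase gene (NCU00977) had 9.95 and 114 FPKM (−3.40). Glycolysis was split, with 4 of 20 genes rising, 1 falling and a median of −0.02 that became 0.64 at the same FPKM sum. Glucose-6-phosphate isomerase, *gpi-1* (NCU07281), had 458 FPKM with staurosporine and 142 FPKM with DMSO. A pair of genes described as phosphoglycerate mutase went opposite ways, NCU04016 with 180 and 38.8 FPKM and NCU09489 with 3.05 and 34.3 FPKM.

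Genes for fermentation, acetate use and gluconeogenesis rose in 9 of 17 cases with 0 falling (median 1.17). Isocitrate lyase, *acu-3* (NCU04230), and malate synthase, *acu-9* (NCU10007), the pair that forms the glyoxylate shunt, had 125 and 218 FPKM with staurosporine, against 52.3 and 96.5 FPKM with DMSO. Fructose-1,6-bisphosphatase, *fbp-1* (NCU04797), the committed step of glucose synthesis, had 20.7 and 7.92 FPKM. A gene described as pyruvate decarboxylase (NCU02397) had 51.6 FPKM with staurosporine and 4.20 FPKM with DMSO (3.34), and *adh-1* (NCU01754), an alcohol dehydrogenase, had 48.2 and 3.41 FPKM (3.48). In the wild type *adh-1* went the other way, with 10.1 FPKM with staurosporine and 41.8 FPKM with DMSO. The major pyruvate decarboxylase gene *cfp* (NCU02193) had 41.5 and 30.7 FPKM with staurosporine and DMSO in Δ*czt-1*, against 23.5 and 428 FPKM in the wild type.

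Of 73 amino acid biosynthesis genes 35 fell and 3 rose, and of 26 purine and pyrimidine genes 13 fell and 1 rose. Both medians were −0.99, and both were −0.32 at the same FPKM sum. Methionine synthase, *met-8* (NCU06512), the last step of methionine synthesis, had 202 FPKM with staurosporine and 3488 FPKM with DMSO (−4.11), against 2024 and 2858 FPKM in the wild type. *aro-6* (NCU05548), the entry step to aromatic amino acids, had 32.6 and 373 FPKM (−3.47), and *cys-16* (NCU09230), a cystathionine gamma-lyase of sulfur amino acid metabolism, had 4.72 and 44.9 FPKM (−3.0). At the head of nucleotide synthesis, the phosphoribosyl pyrophosphate synthetase gene NCU01786 had 4.72 FPKM with staurosporine and 84.0 FPKM with DMSO (−3.89), and *ad-7* (NCU04216), the first committed step of purine synthesis, had 9.27 and 118 FPKM (−3.53). Vitamin and cofactor genes fell in 12 of 30 cases and rose in 3, with a median of −0.36 that became 0.29 at the same FPKM sum. Among them *gch-1* (NCU07774), which opens folate synthesis, had 6.84 FPKM with staurosporine and 86.1 FPKM with DMSO, while *rib-3* (NCU01449), described as GTP cyclohydrolase II, which opens riboflavin synthesis, had 286 and 24.5 FPKM.

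Genes for fatty acid synthesis and elongation fell in 7 of 14 cases and rose in 1 in Δ*czt-1* (median −0.98, and −0.31 at the same FPKM sum). The gene that rose, NCU09473, described as a 3-ketoacyl-acyl carrier protein reductase, had the steepest rise of all rows that reached 10 FPKM. The desaturase gene NCU09497, which adds double bonds to fatty acids, had 26.9 FPKM with staurosporine and 489 FPKM with DMSO (−4.13). Fatty acid synthase, *cel-1* (NCU07308) and *cel-2* (NCU07307), had 120 and 122.8 FPKM with staurosporine, against 255 and 260 FPKM with DMSO. ATP citrate lyase (NCU06783), which supplies the acetyl-CoA, had 644 and 1327 FPKM with staurosporine and DMSO, while the second subunit gene of that enzyme (NCU06785) had 825 and 857 FPKM (−0.05, and 0.62 at the same FPKM sum). Acetyl-CoA carboxylase (NCU08535), the rate-limiting step, had 116 and 185 FPKM (−0.67, and 0.00 at the same FPKM sum). Genes for sphingolipids and phospholipids fell in 11 of 67 cases and rose in 3, with a median of −0.14 that became 0.44 at the same FPKM sum.

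In the wild type ATP citrate lyase (NCU06783), fatty acid synthase and acetyl-CoA carboxylase stood higher with staurosporine than with DMSO, whereas the desaturase gene NCU09497 had 217 FPKM with staurosporine and 544 FPKM with DMSO. The group median there was 1.08, and 1.98 with the wild-type libraries at the same FPKM sum. The wild-type values were 3814 and 1237 FPKM for ATP citrate lyase, 407 and 196 FPKM for *cel-1*, 380 and 177 FPKM for *cel-2*, and 598 and 115 FPKM for acetyl-CoA carboxylase. Sterol synthesis genes, for the ergosterol of the fungal membrane, fell in 9 of 21 cases in Δ*czt-1* with 0 rising. Their median was −0.69, against 0.19 in the wild type. With the libraries of each strain at the same FPKM sum, the medians were −0.06 in Δ*czt-1* and 1.10 in the wild type. Hydroxymethylglutaryl-CoA synthase (NCU03922), at the start of the pathway, had 157 FPKM with staurosporine and 535 FPKM with DMSO, *erg-1* (NCU04156), the C-8 sterol isomerase, had 153 and 500 FPKM, and squalene epoxidase (NCU08280) had 24.9 and 85.7 FPKM. Fatty acid breakdown and the peroxisome had a median of 0.34 with 5 of 46 genes rising and 1 falling, and the acyl-CoA dehydrogenase gene *acd-2* (NCU08924) had 213 FPKM with staurosporine and 36.6 FPKM with DMSO.

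Genes that handle oxidants rose and fell in shares near those of all rows. Of 39 genes for glutathione, thioredoxin, catalase and peroxidase 8 rose and 9 fell (median 0.02). These are 20.5% and 23.1%, against 18.5% and 19.9% of all rows. The 4 catalase genes, whose products break down hydrogen peroxide, divided evenly by direction. *cat-1* (NCU08791) had 28.2 FPKM with staurosporine and 1.37 FPKM with DMSO (3.62) and *cat-2* (NCU05770) had 16.1 and 1.19 FPKM (2.96). *cat-3* (NCU00355) had 4.33 and 36.8 FPKM (−2.83), and *cat-4* (NCU05169) had 2.17 and 6.38 FPKM (−1.22, and −0.70 at the same FPKM sum). The catalytic subunit of glutamate-cysteine ligase (NCU01157), which makes the limiting precursor of glutathione, had 1.33 FPKM with staurosporine and 59.5 FPKM with DMSO (−4.70), against 10.8 and 68.2 FPKM in the wild type. Superoxide dismutase, *sod-1* (NCU02133), had 880 and 1291 FPKM (−0.55, and 0.12 at the same FPKM sum). Dehydrogenases of the alcohol, aldehyde, aldo-keto and short-chain families, which reduce or oxidize small carbonyl compounds, rose in 33 of 91 cases and fell in 10 (median 0.65), and cytochrome P450 and other monooxygenases rose in 10 of 37 and fell in 5 (median 0.27).

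**Figure D3:**
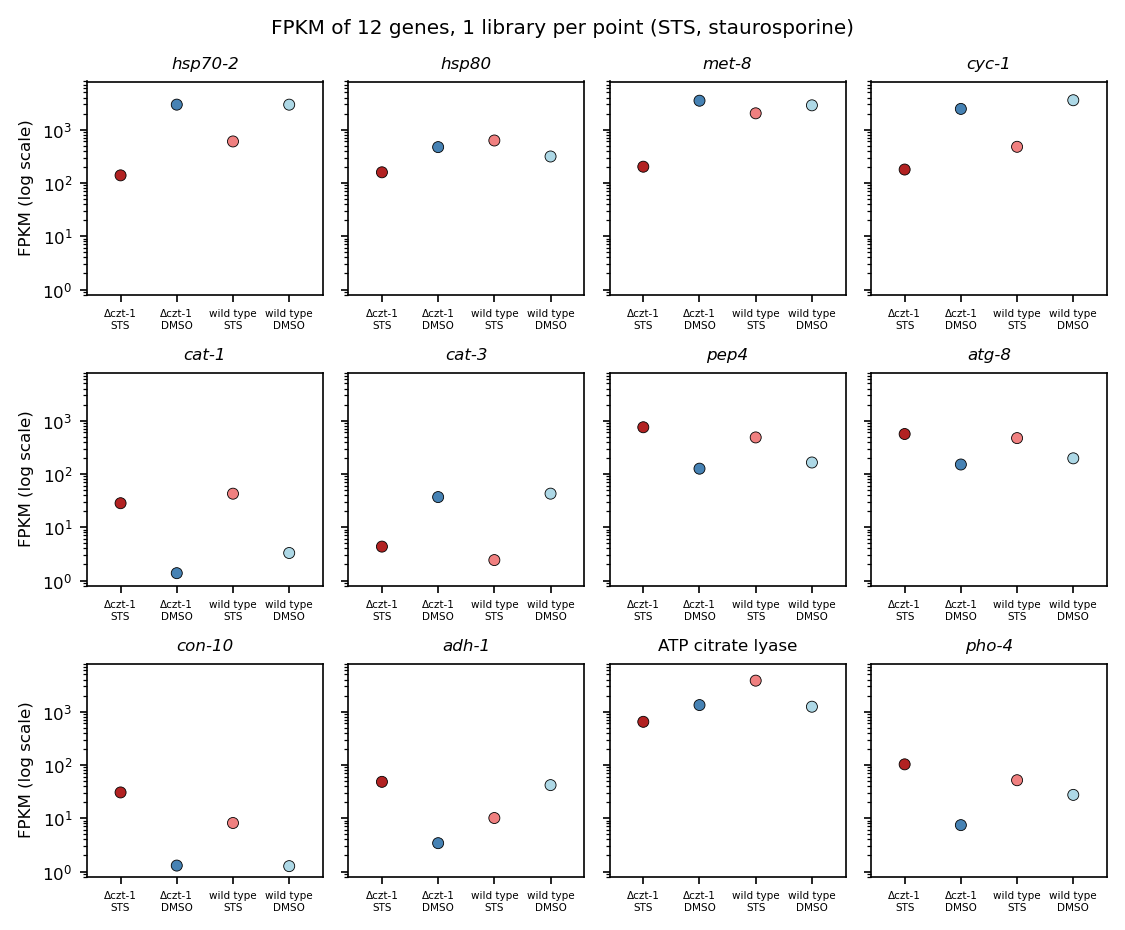
FPKM of 12 genes on a log axis in the 4 libraries, from left to right Δczt-1 with staurosporine (STS), Δczt-1 with DMSO, wild type with staurosporine and wild type with DMSO, 1 library per point and no error. In Δczt-1 hsp70-2, met-8 and cyc-1 stand at 139, 202 and 178 FPKM with staurosporine against 2944, 3488 and 2448 FPKM with DMSO, while pep4, atg-8 and cat-1 stand higher with staurosporine.

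Membrane transporters moved both ways. ABC transporters, the family of *abc3*, had 2 of 19 genes rising and 3 falling (median 0.03), against a median of 0.78 in the wild type. The furthest changes among those that reached 10 FPKM went both ways. NCU04097 had 17.2 FPKM with staurosporine and 142 FPKM with DMSO (−2.97), and NCU02544 had 47.2 and 17.2 FPKM (1.40). NCU08056, described as AtrF, had 5.52 and 13.5 FPKM (−1.15, and −0.55 at the same FPKM sum). The genes described as CDR4 (NCU05591) and MDR (NCU07546) had 11.9 and 8.80 FPKM with staurosporine, against 8.96 and 14.8 FPKM with DMSO. Carriers of the major facilitator superfamily and other drug transporters rose in 16 of 39 cases and fell in 7 (median 0.73), led by NCU04672 of the MatE family with 27.2 FPKM with staurosporine and 1.21 FPKM with DMSO (3.67).

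Sugar transporters rose in 9 of 28 cases and fell in 5 (median 0.70). The fallers included the more expressed members, with 99.9 FPKM with staurosporine and 603 FPKM with DMSO for the hexose transporter NCU01633 and 30.05 and 121 FPKM for *hgt-1* (NCU10021), a glucose transporter. *hgt-1* had 466 FPKM with staurosporine and 158 FPKM with DMSO in the wild type. Permeases for nitrogen compounds split, with 10 of 36 rising and 12 falling, and a median of −0.09 that became 0.53 at the same FPKM sum. The nitrate transporter gene *nit-10* (NCU07205) had 215 FPKM with staurosporine and 26.7 FPKM with DMSO (2.97), while the urea transporter NCU01977 had 39.7 and 337 FPKM (−3.05). The phosphate permease genes *pho-4* (NCU09564) and *pho-5* (NCU08325), which in *N. crassa* are known to be induced by phosphate starvation, had 103 and 33.3 FPKM with staurosporine, against 7.42 and 2.30 FPKM with DMSO (3.62 and 3.38). In the wild type they had 51.7 and 3.30 FPKM with staurosporine, against 27.4 and 4.17 FPKM with DMSO.

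Enzymes that degrade plant cell walls, which a saprotroph secretes to feed, rose in 16 of 46 measured genes and fell in 4 (median 0.56). The beta-glucosidase gene *gh1-1* (NCU00130), which splits cellobiose, had 29.8 FPKM with staurosporine and 2.85 FPKM with DMSO (3.0), and the alpha-xylosidase gene NCU04885 had 18.8 and 2.92 FPKM (2.34). Genes for the fungus's own cell wall were spread about 0 as deposited, with 12 of 64 rising and 5 falling (median 0.07, and 0.66 at the same FPKM sum). The 2 wall proteins *acw-10* and *ncw-3* went opposite ways, NCU03013 (*acw-10*) with 18.7 FPKM with staurosporine and 148 FPKM with DMSO and NCU07817 (*ncw-3*) with 42.0 and 5.10 FPKM.

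Protein kinase genes, whose products are the targets of the drug, changed little in transcript level as deposited. Of 77 measured kinase genes 9 rose and 7 fell (median 0.15, and 0.80 at the same FPKM sum). The 3 with the furthest changes among those that reached 10 FPKM were *stk-55* (NCU09595) with 1.84 FPKM with staurosporine and 18.3 FPKM with DMSO, *un-1* (NCU08346) with 39.7 and 9.25 FPKM and *stk-39* (NCU06230) with 143 and 43.8 FPKM. Phosphatases rose in 4 of 34 and fell in 4, with a median of −0.25 that became 0.37 at the same FPKM sum. Calcium-handling genes rose in 5 of 29 and fell in 1 (median 0.09), and calmodulin (NCU00171), the main calcium sensor, had 71.9 FPKM with staurosporine and 24.7 FPKM with DMSO.

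Transcription factor genes fell in 19 of 85 cases and rose in 11, with a median of −0.09 that became 0.47 at the same FPKM sum. The shares were 22.4% falling and 12.9% rising, against 19.9% and 18.5% of all rows. *adv-1* (NCU07392), known for its part in hyphal fusion and sexual development, had 52.5 FPKM with staurosporine and 356 FPKM with DMSO (−2.74). NCU05285, described as RfeC, had 6.41 and 81.3 FPKM, and NCU02739, described as RfeD, had 34.3 and 2.51 FPKM. In the circadian clock, *frq* (NCU02265), the negative element, had 15.3 FPKM with staurosporine and 49.1 FPKM with DMSO (−1.62, and −0.97 at the same FPKM sum) and its partner helicase *frh* (NCU03363) had 5.08 and 40.9 FPKM (−2.78). Of the white collar proteins, which sense light and drive *frq*, *wc-1* (NCU02356) had 6.13 and 18.2 FPKM (−1.43, and −0.82 at the same FPKM sum) and *wc-2* (NCU00902) 16.8 and 21.7 FPKM (−0.35, and 0.29 at the same FPKM sum). Carotenoid genes *al-1* (NCU00552), *al-2* (NCU00585) and *al-3* (NCU01427), which make the orange pigment, changed by 0.64, 0.85 and 0.66, and by 1.26, 1.48 and 1.31 at the same FPKM sum. The steepest rise among clock, light and carotenoid genes was in *bli-3* (NCU07267), a blue-light-induced gene, with 59.8 FPKM with staurosporine and 5.02 FPKM with DMSO (3.34). In that group 5 of 20 genes rose and 8 fell, and the median of −0.30 became 0.36 at the same FPKM sum.

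Genes of conidiation and development rose in 7 of 11 measured cases and fell in 3 (median 1.29). *con-10* (NCU07325) had 30.5 FPKM with staurosporine and 1.29 FPKM with DMSO (3.78), *con-8* (NCU09235) had 25.3 and 2.04 FPKM (3.11), and *con-6* (NCU08769) had 15.2 and 1.91 FPKM (2.48). The rodlet gene *eas* (NCU08457), whose hydrophobin coats conidia, had 95.7 and 44.0 FPKM (1.10), and *con-13* (NCU07324) stayed near 0 at 0.339 and 0.136 FPKM. These 5 are the conidial markers whose sums are given above. The gene *ccg-1* (NCU03753), known for its control by the clock and by glucose, had 209 FPKM with staurosporine and 30.1 FPKM with DMSO (2.75).

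Genes for cell structure and division kept mostly within 2-fold. Actin, *act* (NCU04173), had 1224 FPKM with staurosporine and 1517 FPKM with DMSO (−0.31, and 0.36 at the same FPKM sum). Cytoskeleton, motor and septin genes fell in 11 of 61 cases and rose in 2, with a median of −0.10 that became 0.56 at the same FPKM sum, and a septin gene (NCU01998) had 5.17 FPKM with staurosporine and 32.4 FPKM with DMSO. Genes for DNA replication, repair and the cell cycle rose in 13 of 109 and fell in 9 (median 0.12). Histone and chromatin genes rose in 7 of 61 and fell in 1, with a median of −0.10 that became 0.56 at the same FPKM sum. Their 3 steepest rises were in NCU01862, a SWIRM domain protein, with 41.8 FPKM with staurosporine and 1.45 FPKM with DMSO (4.13), in NCU04786, a helicase of the SNF2 family, with 25.8 and 1.94 FPKM (3.19), and in the sirtuin gene *nst-6* (NCU05973) with 13.8 and 0.807 FPKM (3.03).

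Most of the steepest rises were in genes whose description gives no function. Rows described as hypothetical protein made up 44.5% of the measured rows, 57.3% of those that rose and 36.4% of those that fell. Of the 10 steepest rises among rows that reached 10 FPKM, 7 were hypothetical proteins. All of the 10 but NCU03684 also rose in the wild type. NCU04287 and NCU04314 rose further there than in Δ*czt-1*, and the others less far. NCU04287 had 484 and 13.5 FPKM with staurosporine and DMSO in Δ*czt-1*, against 1096 and 14.96 FPKM in the wild type. NCU04314 had 824 and 31.5 FPKM, against 1532 and 30.7 FPKM. The steepest rise, NCU09473, had 291 and 20.7 FPKM in the wild type (3.75). NCU08155 had 306 FPKM with staurosporine and 4.29 FPKM with DMSO (5.86), and NCU03684 had 254 and 6.75 FPKM (5.04), against 12.2 and 5.47 FPKM and 12.7 and 9.04 FPKM in the wild type. NCU08281 and NCU08282, which lie next to each other in the annotation, had 121 and 74.9 FPKM with staurosporine, against 1.83 and 1.21 FPKM with DMSO. Among described genes, NCU09473, a 3-ketoacyl-acyl carrier protein reductase, had 2117 FPKM with staurosporine and 18.6 FPKM with DMSO (6.76), and NCU04639, described as the non-classical export protein Nce102, had 145 and 4.67 FPKM (4.69). The steepest fall was in the hypothetical protein NCU09848, with 2.69 FPKM with staurosporine and 194 FPKM with DMSO (−5.72), and the wild type had 1.6 and 149 FPKM (−5.85).

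Further genes that earlier work on *czt-1* in this fungus singled out had their own values. *tah-3* (NCU03686), linked to tolerance of a plasma jet, had 13.4 FPKM with staurosporine and 89.4 FPKM with DMSO (−2.65), against 31.1 and 27.2 FPKM in the wild type. The gene NCU12058, for the AIF-like protein AMID-2, had 2.60 and 1.96 FPKM (0.28) in Δ*czt-1*, against 10.04 and 1.73 FPKM in the wild type. NCU06977 had 25.7 FPKM with staurosporine and 1.23 FPKM with DMSO (3.58), against 7.54 and 3.14 FPKM in the wild type (1.04). NCU03273, described as an NF-X1 finger transcription factor, had 32.5 FPKM with staurosporine and 15.9 FPKM with DMSO (0.99), and NCU02959 had 4.28 and 1.79 FPKM (0.92). Their FPKM ratios were 2.05 and 2.40, and their changes were 1.63 and 1.42 at the same FPKM sum. NCU06609 had 26.8 and 24.8 FPKM (0.11).

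Set beside the wild type, the 2 groups whose medians lay furthest below those of the wild type were fatty acid synthesis, described above, and ribosome biogenesis, with medians of −3.56 in Δ*czt-1* and −1.57 in the wild type. Ribosomal proteins ran the other way, at −1.37 in Δ*czt-1* and −2.10 in the wild type, as did ATP synthase at −0.33 and −1.20. Mitochondrial import stood at −1.98 in Δ*czt-1* and −1.57 in the wild type, and conidiation genes at 1.29 and 1.09. The median gene changed by 0.00 in Δ*czt-1* and by 0.11 in the wild type. With the libraries of each strain at the same FPKM sum, it changed by 0.61 in Δ*czt-1* and by 0.86 in the wild type. In the same order, the medians were then −3.04 and −0.69 for ribosome biogenesis and −0.31 and 1.98 for fatty acid synthesis. For cytosolic ribosomal proteins they were −0.69 and −1.19, and for ATP synthase 0.34 and −0.29. For mitochondrial import they were −1.32 and −0.68, and for conidiation genes 1.94 and 1.79.

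**Figure D4:**
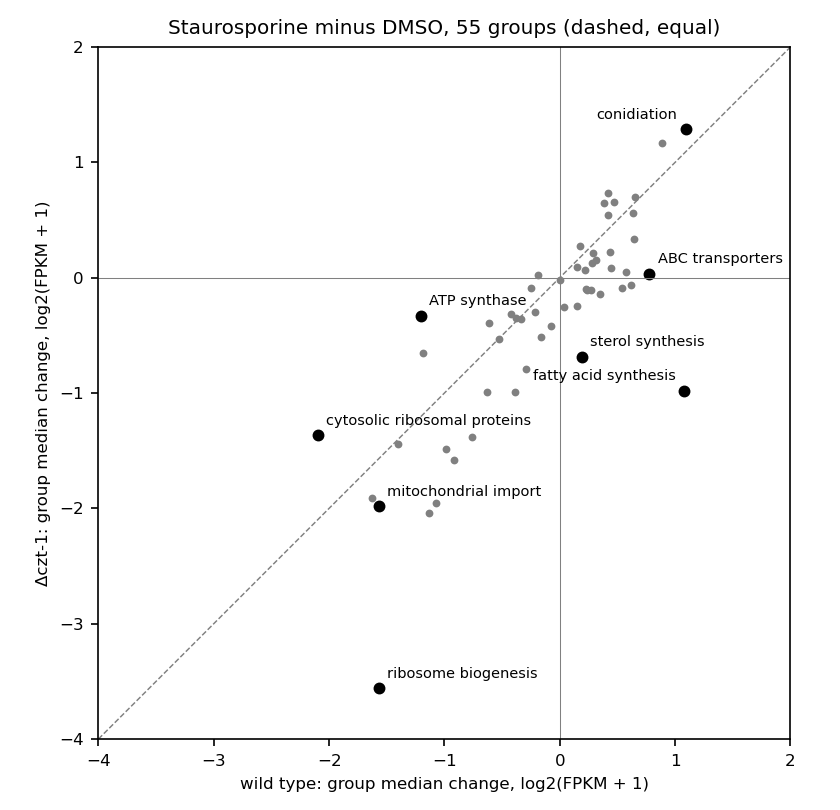
Median change with staurosporine of 55 functional groups, staurosporine minus DMSO in log2(FPKM + 1), in Δczt-1 (vertical axis) and in the wild type (horizontal axis), with the dashed line where both are equal. Ribosome biogenesis lies below the line at −3.56 and −1.57 and fatty acid synthesis at −0.98 and 1.08, while cytosolic ribosomal proteins lie above it at −1.37 and −2.10. Medians of both strains are over the rows that passed the filter in the Δczt-1 libraries.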

How the data were processed

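Total mRNA of N. crassa germlings was sequenced, 1 library per condition, and 3 tables were deposited, each with the FPKM of 1 pair of libraries. The Δczt-1 pair came from 1 table and the wild-type pair from another. The DMSO columns that recur in the third table hold identical values. Per the submitters' processing notes, reads went through TopHat2 2.0.4 and Cufflinks 2.0.2 with Cuffdiff, and the FPKM values were deposited by the authors as Cuffdiff scaled them. They are not counts, so no count test was run, and with 1 library per condition no test across genes could be run. Columns of the authors' own comparisons (fold changes, test statistics, p- and q-values) were not used. Library read totals are unknown, and the low values gave no whole-read steps. The 5th percentile of low FPKM times transcript length in kb, below 0.5, was 0.0862 for Δczt-1 with staurosporine and 0.0435 for Δczt-1 with DMSO. Values were listed at 0 in 895 and 945 rows of the 2 libraries.

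The change was log2(FPKM + 1) with staurosporine minus that with DMSO, over rows in which at least 1 of the Δczt-1 libraries reached an FPKM of 1. Wild-type medians were taken over the same rows, so rows expressed only in the wild type are left out. Groups were set by words in the deposited gene descriptions, and a row may belong to more than 1 group (41 rows). The members, groups and named genes were chosen with earlier results of these data known. Genes named are czt-1 and abc3, the 10 steepest rises and falls among rows of at least 10 FPKM, up to 3 members per group, genes that define a group in textbooks and genes the study named. Some of the textbook genes were added after their values were seen. Symbols come from the RefSeq annotation of assembly NC12, matched by locus tag (9141 rows). Its chromosomes and start positions were used only to put genes in order for the look at neighbours. Alternatives were pseudocounts of 0.1 and 5, other filters, 3 scalings, other fold thresholds and joined rows left out. The 2-fold cut and the scaling were tested on simulated data, and the group medians were not. Scripts ran in Python 3.11.15 with pandas 2.3.3, numpy 2.4.6 and matplotlib 3.10.9.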

Additional observations from a re-analysis of the deposited data

Results flagged for a closer look

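In 8 named genes the change with staurosporine was at least 2-fold in both strains and ran opposite ways, and the difference between the strains was not tested. Those higher with staurosporine in Δ*czt-1* were *adh-1* (NCU01754), with a change of 3.48 in Δ*czt-1* and −1.95 in the wild type, and the transporter gene NCU10368 of the major facilitator superfamily, with 2.14 and −1.42. Those lower in Δ*czt-1* were the glucose transporter gene *hgt-1* (NCU10021), with −1.97 in Δ*czt-1* and 1.56 in the wild type, the fatty acid elongase gene NCU06694, with −1.46 and 1.92, and the light receptor gene *wc-1* (NCU02356), with −1.43 and 1.27. The fatty acid synthase genes *cel-1* (NCU07308) and *cel-2* (NCU07307) changed by −1.08 each in Δ*czt-1* and by 1.05 and 1.10 in the wild type, and ATP citrate lyase (NCU06783) by −1.04 and 1.62. For the elongase NCU06694 the FPKM were 54.4 with staurosporine and 152 with DMSO in Δ*czt-1*, against 528 and 139 in the wild type. For NCU10368 they were 45.4 and 9.55 in Δ*czt-1*, against 2.99 and 9.71 in the wild type. At the same FPKM sum 5 of the 8 no longer reached 2-fold in Δ*czt-1*, with −0.82 for *wc-1*, −0.80 for the elongase, −0.41 each for *cel-1* and *cel-2* and −0.37 for ATP citrate lyase. The wild-type changes of these genes are as deposited and were not rescaled. How many of the 8 would keep 2-fold opposite changes with both strains rescaled was therefore not determined. Some of the 8 were named after their values were seen.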

How the results depend on the processing

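In Δ*czt-1* 2980 rows changed at least 2-fold, with 1435 higher and 1545 lower. A pseudocount of 5 gave 1951 rows with 754 higher, and a filter at 10 FPKM left 890 higher rows. At the same FPKM sum 2736 rows were higher and 845 lower. A 1.5-fold threshold gave 4672 rows, 2336 each way, and a 4-fold threshold 959 rows, 392 higher and 567 lower. The other counts stayed within 1.5 times. Of the 12 groups with a median of at least 2-fold, none changed sign under any alternative run, and 7 still reached 2-fold at the same FPKM sum, against 11 or 12 under each other alternative. Groups that newly reached 2-fold numbered 6 at the same FPKM sum, 4 with the filter at 10 FPKM and 1 with a pseudocount of 0.1. Of all 55 groups, 20 changed sign at the same FPKM sum and 11 with the 100 most expressed rows left out of the sum. Of 218 named genes 186 changed at least 2-fold, none of which changed sign under the alternatives run for them, and 14 no longer reached 2-fold at the same FPKM sum. The promoter motif comparison was not run, since no promoter sequences were used here. No paired analysis was possible because each condition has 1 library. Read totals are unknown, so no counting error could be given.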

Other observations

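Neighbouring genes in the order of the annotation often moved together in Δ*czt-1*. Of the rows that rose at least 2-fold and had a measured neighbour, 42.1% (515 of 1224) had a neighbour that also rose, against 22.4% (1287 of 5748) of all other rows. Of the rows that fell, 43.3% (603 of 1394) had a neighbour that also fell, against 27.4% (1527 of 5578) of all other rows. Overlapping transcripts can share reads where strand is not kept, and their part in these shares was not tested. Pairs seen among the named genes include *rrp-3* (NCU04504) beside the ribosome biogenesis gene *ssf2* (NCU04503), which had 2.15 FPKM with staurosporine and 55.1 FPKM with DMSO, and *hsp70-2* (NCU02075) beside the eIF4E gene NCU02076. The conidiation gene *con-10* (NCU07325) rose next to *con-13* (NCU07324), which stayed near 0. NCU08281 rose beside NCU08282 on one side and next to squalene epoxidase (NCU08280), which fell, on the other, with 24.9 FPKM with staurosporine and 85.7 FPKM with DMSO. Next to *acd-2* (NCU08924), an amine oxidase gene (NCU08925) had 104 FPKM with staurosporine and 4.96 FPKM with DMSO, and on its other side the zinc knuckle gene NCU08923 had 113 and 1341 FPKM. These pairs were picked out after their values were seen.

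The heme, iron, copper and siderophore genes are a group not summarised above. Of 28 measured genes 9 fell and 1 rose, and their median of −0.39 became 0.20 at the same FPKM sum. The siderophore iron transporter gene NCU06132 had 1.80 FPKM with staurosporine and 19.3 FPKM with DMSO, and the cytochrome c1 heme lyase gene NCU08138 had 11 and 45.1 FPKM. Small GTPases and their regulators fell in 12 of 63 cases and rose in 2, with a median of −0.11 that became 0.51 at the same FPKM sum. NCU09513, described as GTP-binding protein 1, had 101 FPKM with staurosporine and 16.9 FPKM with DMSO, while the Ras gene NCU06111 had 11.8 and 57.9 FPKM. The heterokaryon incompatibility group had 8 measured genes, of which 3 rose and 3 fell, with a median of −0.25 that became 0.13 at the same FPKM sum.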
